A study of Mus musculus with 6 samples.

Results

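Chromosome 12 was described through every listed region on it with a mean of at least 10 normalised reads over the 6 libraries, ordered by start position. The table listed 1872 such regions before that limit and 1798 after it, of 51253 regions over the same limit on 20 chromosomes, while 74 chromosome 12 regions fell below it. The chromosome was chosen by its values in the contrast of active against inactive, which were higher in the active line, so its overall level and each count of higher or lower regions are a description and support nothing. Just inside the limit lay a region at 16096340 to 16096550 (positions of regions are on the build mm39) with 8, 9 and 9 normalised reads in the active libraries and 9, 10 and 15 in the inactive libraries. Just outside it lay a region at 102276119 to 102276304 with 19, 12 and 22 in the active libraries and 1, 2 and 3 in the inactive libraries.

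The 6 ATAC-seq libraries came from NIH3T3, an immortal mouse fibroblast line, in 2 groups of 3. The active group carried the self-cleaving T3H48 hammerhead ribozyme (T3H48-aHHR), placed by knock-in within an intron of Actg1, which encodes a cytoplasmic actin. The inactive group carried the inactive form (T3H48-iHHR) in the same place, so that both groups share the knock-in and differ in ribozyme activity, and the question of the series is how transcription adapts when an RNA is made unstable. Both groups were stable lines, and whether libraries of 1 group came from separate cultures or clones is not stated in the labels, so p-values measure only the spread between libraries, which may be technical, and ribozyme activity and line identity cannot be told apart. Regions of the targeted gene itself were not analysed here.

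ATAC-seq uses the transposase Tn5, which cuts and tags DNA that is not wrapped in nucleosomes, so that the reads over a region report how open it is. Promoters of broadly used genes are open in most cell types and give wide, strong regions, whereas regions away from genes, many of them enhancers, are narrower and differ more between cell states. A value counts reads from all copies of a region in all cells. The number of copies, the share of cells in which the region is open and the openness in each cell therefore cannot be told apart.

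The sequences of 4 promoters are shown, chosen by their place relative to the common shift of chromosome 12 among named promoters with a matched start site. They are the pair farthest above the shift (Ppp4r4 and Mboat2) and the pair farthest below it (Kcnf1 and Acyp1). Each sequence is 300 bases from RefSeq on GRCm38.p6, 250 before and 50 after the start, written 5′ to 3′ on the gene's strand, with CG dinucleotides, the sites of DNA methylation, in capitals. Ppp4r4 lies at chr12:103532315-103532614 on the + strand, Mboat2 at chr12:24831349-24831648 on the + strand, Kcnf1 at chr12:17176839-17177138 on the - strand and Acyp1 at chr12:85288389-85288688 on the - strand.
Ppp4r4: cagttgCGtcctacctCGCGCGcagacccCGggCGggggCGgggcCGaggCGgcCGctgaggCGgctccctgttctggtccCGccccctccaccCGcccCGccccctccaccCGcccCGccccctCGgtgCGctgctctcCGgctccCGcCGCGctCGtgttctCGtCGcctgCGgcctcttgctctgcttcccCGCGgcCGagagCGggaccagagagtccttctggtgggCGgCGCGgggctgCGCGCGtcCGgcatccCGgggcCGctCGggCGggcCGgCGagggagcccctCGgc
Mboat2: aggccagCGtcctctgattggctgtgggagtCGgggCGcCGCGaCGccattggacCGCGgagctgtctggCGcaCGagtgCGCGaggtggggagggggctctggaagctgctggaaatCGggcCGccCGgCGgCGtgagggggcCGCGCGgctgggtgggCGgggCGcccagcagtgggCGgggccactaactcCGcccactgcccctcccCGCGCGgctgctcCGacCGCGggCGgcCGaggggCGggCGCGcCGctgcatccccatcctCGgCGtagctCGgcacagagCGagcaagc
Kcnf1: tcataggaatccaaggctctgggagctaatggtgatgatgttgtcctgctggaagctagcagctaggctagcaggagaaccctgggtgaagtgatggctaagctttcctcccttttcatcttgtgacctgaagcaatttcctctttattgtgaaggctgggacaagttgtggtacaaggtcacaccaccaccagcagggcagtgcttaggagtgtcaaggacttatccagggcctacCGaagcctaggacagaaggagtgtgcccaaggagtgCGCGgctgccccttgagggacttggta
Acyp1: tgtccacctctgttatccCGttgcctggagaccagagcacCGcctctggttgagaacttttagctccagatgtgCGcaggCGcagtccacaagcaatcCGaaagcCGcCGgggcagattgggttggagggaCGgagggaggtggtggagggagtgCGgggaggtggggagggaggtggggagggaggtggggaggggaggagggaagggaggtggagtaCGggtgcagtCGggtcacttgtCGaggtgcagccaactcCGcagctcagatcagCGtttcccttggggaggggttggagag

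Both promoters farthest above the shift were dense in CG, with 44 in Ppp4r4 and 40 in Mboat2, against 3 in Kcnf1 and 14 in Acyp1. Of 307 chromosome 12 genes with a promoter region, 264 had a RefSeq entry by symbol, and 247 of these had a start site in the place that their neighbours give. The median number of CG was 28.5 in the 22 matched promoters above the common shift, 24 in the 163 at it (not called off it) and 23 in the 62 below it. The quartiles were 15.5 and 40 above the shift, 18 and 32 at it and 16.5 and 30.75 below it, so the middle parts of the 3 groups overlapped. Over all 32851 RefSeq promoters the median was 7, below the median of each of these groups. The letters TGANTCA of the AP-1 site read the same on both strands. They were in 1 of the 22 promoters above the shift, 8 of the 163 at it and 2 of the 62 below it. Their share was 4.45% of the 247 matched promoters and 7.81% of all RefSeq promoters. The letters TATAAA on either strand were in 0 of the 22 promoters above the shift, 4 of the 163 at it and 6 of the 62 below it. Their share was 4.05% of the 247 matched promoters and 13.6% of all RefSeq promoters, a set not limited to open promoters. Differences between these groups were not tested.

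Chromosome 12 held a larger part of the signal in the active line. Its tested regions took 3.64, 3.67 and 3.70% of all normalised reads in tested regions in the active libraries and 2.59, 2.60 and 2.57% in the inactive libraries, or 3.67% ± 0.0288 and 2.59% ± 0.0154 (SD, n = 3 each). The groups did not overlap, and their ratio was 1.42. The median deviation of the regions from their own mean over all libraries was 0.25, 0.28 and 0.28 in the active libraries and -0.25, -0.25 and -0.27 in the inactive libraries, on the log2(value + 1) scale. The difference between the group means of these medians, 0.53 or 1.44-fold, is called the common shift below.

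By limma on log2(value + 1), with Benjamini-Hochberg adjustment over all 51253 regions at 0.05, 1209 of the 1798 regions were higher in the active line (67.2%, background 30.9%) and 121 were lower (6.73%, background 29.2%), while 468 were not called. The median log2 fold change of active against inactive was 0.50, with a lower quartile of 0.21 and 452 regions at least 2-fold higher (background 13.4%). Among the 20 chromosomes its median was the highest, before chromosome 13 at 0.33, chromosome 6 at 0.31, chromosome 5 at 0.29 and chromosome 15 at 0.27. At least 2-fold lower were 59 regions (background 6.86%). In 1208 regions all active libraries stood above all inactive ones (background 31.8%), and in 118 all stood below (background 30.5%).

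**Figure D1:**
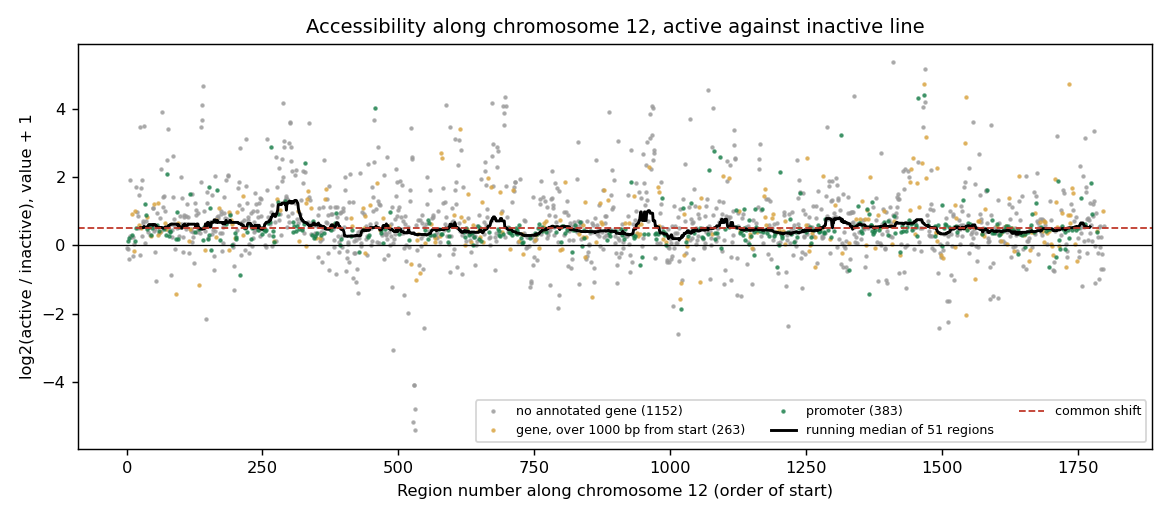
Log2 fold change of active against inactive (y axis, on the value + 1 scale) for the 1798 regions of chromosome 12 in order of start (x axis, region number), coloured by class, with a running median in black and the common shift of 0.53 dashed. The running median stays above 0 along the whole chromosome, while regions with no annotated gene scatter most widely around it.

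The log2 fold changes spread least among strong promoters. Of 1798 regions, 383 were promoters, with a peak centre at most 1000 bp from an annotated start site, 263 carried a gene farther from its start, and 1152 carried no gene. Promoters had a median log2 fold change of 0.43 with quartiles of 0.30 and 0.56, and 311 of 383 were higher (81.2%, background for promoters 22.4%) and 7 lower (background 36.6%). Regions with no gene had a median of 0.57 with wider quartiles of 0.13 and 1.17, and 725 of 1152 were higher (62.9%, background for such regions 34.3%) and 99 lower (background 26.4%).

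Among the 136 promoters with a mean of at least 300 normalised reads, 133 were higher (background for such promoters 24%) and 0 lower (background 40.4%), and their log2 fold changes ran only between 0.07 and 1.38 with quartiles of 0.34 and 0.53. The spread narrowed with abundance over all classes: in 4 groups by quartile of mean level, from the weakest to the strongest regions, the median log2 fold change was 0.73, 0.66, 0.46 and 0.44. The quartiles were -0.03 and 1.63 in the weakest group, in which 5.71% were promoters, and 0.30 and 0.59 in the strongest, in which 55.1% were promoters. Weak regions also carry more counting error, and the active libraries held fewer reads before scaling, an estimated 3710000 to 6840000, against 7330000 to 8960000 in the inactive libraries.

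The gap between promoters and regions with no gene was compared within each library. The mean deviation of promoters minus that of no-gene regions was -0.11, -0.05 and -0.14 in the active libraries and 0.09, 0.07 and 0.15 in the inactive libraries, so the groups did not overlap. The difference of active and inactive was -0.20, with p = 0.1 in a two-sided exact permutation test, the smallest that 3 libraries against 3 allow. On all other chromosomes it was -0.22 (exact permutation p = 0.1), and the difference between chromosome 12 and the others was 0.015 (exact permutation p = 0.4). Compared within 5 bins of mean abundance, the gap was -0.036 on chromosome 12 (exact permutation p = 0.2) and -0.097 on the others (exact permutation p = 0.1), which differed by 0.061 (exact permutation p = 0.1). With a pseudocount of 4 it was -0.14 on chromosome 12 and -0.19 on the others, and with quantile normalization -0.058 and -0.083, with differences of 0.052 and 0.025 (exact permutation p = 0.1 for each). The size of the gap thus depended on these settings. As no p below 0.1 is possible, the test cannot show whether chromosome 12 differed from the others in it.

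**Figure D2:**
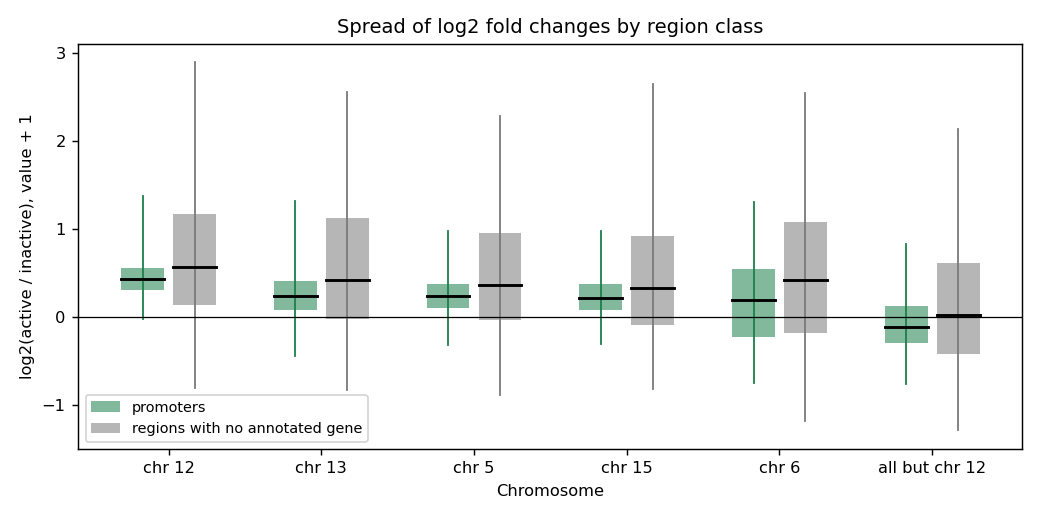
Log2 fold change of active against inactive (y axis) for promoters (green, left of each pair) and regions with no annotated gene (grey), on chromosome 12, the next 4 chromosomes by median and all chromosomes but 12 (x axis); boxes span the quartiles, black lines the medians and thin lines the 5th to 95th percentile. The chromosome 12 promoters have the highest box of all promoter groups, with quartiles of 0.30 and 0.56, and on every chromosome shown the no-gene regions spread more widely than the promoters.

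To find regions that departed from the common shift, each library was lowered by the median deviation of its own chromosome and the same limma fit was run on all 51253 regions. On chromosome 12, 492 regions stood above the common shift (27.4%, background 27.6%) and 466 below it (25.9%, background 25.3%), shares near those of the whole table. Of 383 promoters, 47 stood above (12.3%, background for promoters 14.8%) and 104 below (27.2%, background 26.5%). Of 1152 no-gene regions, 372 stood above (32.3%, background 32.2%) and 296 below (25.7%, background 24.3%). With the shift taken over promoters alone, 70 promoters stood above and 60 below, so the number below depends on what the shift is taken over. Among 307 genes, each by its most abundant promoter region, 111 lay within 0.1 and 199 within 0.2 of the common shift on the log2 scale.

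The strongest promoters close to the shift (within 0.1) show its size plainly. Setd3, whose product methylates a histidine of actin, had 965, 979 and 979 normalised reads in the active libraries and 674, 632 and 703 in the inactive libraries, a log2 fold change of 0.54. Glrx5, a mitochondrial glutaredoxin of iron-sulphur cluster assembly, had 930, 956 and 978 in the active libraries and 619, 616 and 671 in the inactive libraries, a log2 fold change of 0.59. Brf1, a subunit of the initiation factor of RNA polymerase III, had 863, 947 and 878 in the active libraries and 608, 591 and 623 in the inactive libraries, a log2 fold change of 0.56. In all of these every active library stood above every inactive one, and the same held for Jkamp (927.7 ± 36.8 against 681.3 ± 43.4) and for Esyt2, a protein that tethers the endoplasmic reticulum to the cell membrane (923.3 ± 3.06 against 641 ± 17.8; SD, n = 3 each).

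The pair of promoters farthest above the shift, among those with a mean of at least 50, was Ppp4r4 and Mboat2. Ppp4r4, a regulatory subunit of protein phosphatase 4, with the first sequence shown, had 126, 102 and 109 normalised reads in the active libraries and 2, 5 and 9 in the inactive libraries at 103498382 to 103499048. Its log2 fold change was 3.80 ± 0.29 (SE) beyond the shift (limma, adjusted p = 4.58e-13). Mboat2, an acyltransferase that remodels membrane phospholipids, had 305, 378 and 355 in the active libraries and 37, 47 and 53 in the inactive libraries at 24881007 to 24882054, or 2.38 ± 0.12 beyond the shift (limma, adjusted p = 2.19e-19). In both, the densest in CG of the sequences shown, every active library stood above every inactive one. Named regions were chosen for a call on centred values and for centred libraries that do not overlap. Above the shift, such regions cannot overlap before centring either, so their separation and p-values describe the choice and support nothing. The value for Ppp4r4, with few normalised reads in the inactive line, was 3.20 with a pseudocount of 4.

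Further promoters above the shift followed. Esr2, oestrogen receptor beta, had 92, 74 and 93 normalised reads in the active libraries and 24, 19 and 26 in the inactive libraries (1.34 beyond the shift). Nudt14, a hydrolase of UDP-sugars, had 98, 111 and 89 in the active libraries and 22, 27 and 29 in the inactive libraries (1.37 beyond the shift). Ncapg2, a subunit of condensin II, which compacts chromosomes, had 494, 511 and 493 in the active libraries and 201, 181 and 191 in the inactive libraries (0.86 beyond the shift). In these promoters the groups did not overlap, as their choice required, and the libraries of Ncapg2 differed little within each group.

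Sox11, a transcription factor of embryonic progenitor cells, had 235, 269 and 244 normalised reads in the active libraries and 111, 86 and 105 in the inactive libraries (0.78 beyond the shift). Relative to a shift taken over its own window of 10 Mb, Sox11 was 0.42 beyond it and still called. Evl, an Ena/VASP protein that promotes growth of actin filaments, had 248, 307 and 262 in the active libraries and 119, 96 and 109 in the inactive libraries (0.80 beyond the shift). In the other promoters of this group, Angel1, Plekhh1 and Tmem179, every active library likewise stood above every inactive one, with means of 141.3, 92.3 and 397.3 in the active line and 47.7, 35 and 165.7 in the inactive line, 1.02, 0.86 and 0.73 beyond the shift. For all 10 named promoters above the shift the limma adjusted p on centred values was at most 1.81e-05. They were chosen by these values, so neither the p-values nor the separation of their libraries supports anything.

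The promoters farthest below the shift were lower than the inactive line only in a few cases, and the others stood at about the same level in both lines. Kcnf1, a modulatory subunit of voltage-gated potassium channels, had 63, 72 and 49 normalised reads in the active libraries and 118, 107 and 109 in the inactive libraries at 17226260 to 17226957, or -1.39 ± 0.14 (SE) relative to the shift (limma, adjusted p = 5.37e-11). Acyp1, an acylphosphatase, had 137, 120 and 113 in the active libraries and 192, 192 and 186 in the inactive libraries at 85334929 to 85336485, or -1.15 ± 0.10 (SE) relative to the shift (limma, adjusted p = 1.38e-12). Fntb, the beta subunit of protein farnesyltransferase, had 99, 129 and 108 in the active libraries and 146, 137 and 142 in the inactive libraries (-0.87 relative to the shift). In these promoters every active library stood below every inactive one, also without centring.

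Further named promoters below the shift had overlapping libraries before centring. Ahr, the aryl hydrocarbon receptor, had 82, 62 and 76 normalised reads in the active libraries and 79, 82 and 91 in the inactive libraries (-0.73 relative to the shift). Fbln5, an elastic fibre protein, had 135, 122 and 135 in the active libraries and 159, 132 and 154 in the inactive libraries (-0.70 relative to the shift). Others were Ptgr2, a prostaglandin reductase, Btbd6, Psma6, a subunit of the proteasome, and Polr1f, a subunit of RNA polymerase I, between -0.81 and -0.52 relative to the shift. The largest limma adjusted p on centred values among the promoters below the shift named here was 0.00101, for Psma6. These promoters too were chosen by such values.

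Altogether 7 promoter regions of chromosome 12 were called lower without centring. Beside Kcnf1, Acyp1 and Fntb these were Zbtb42 (15 ± 2.65 against 24 ± 5.29), an unnamed lncRNA at 79938805 (8.67 ± 3.79 against 33 ± 5.29), an unnamed lncRNA at 99594031 (19 ± 6.08 against 51 ± 2.65) and a gene model of type TEC at 95700932 (14.3 ± 6.81 against 23 ± 2.65), each as active against inactive (SD, n = 3 each). The last 4 were chosen for their call, all are weak regions, and in each of them every active library had fewer normalised reads than the inactive mean. In the region of type TEC the groups overlapped, with 22, 12 and 9 in the active libraries and 24, 25 and 20 in the inactive libraries.

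**Figure D3:**
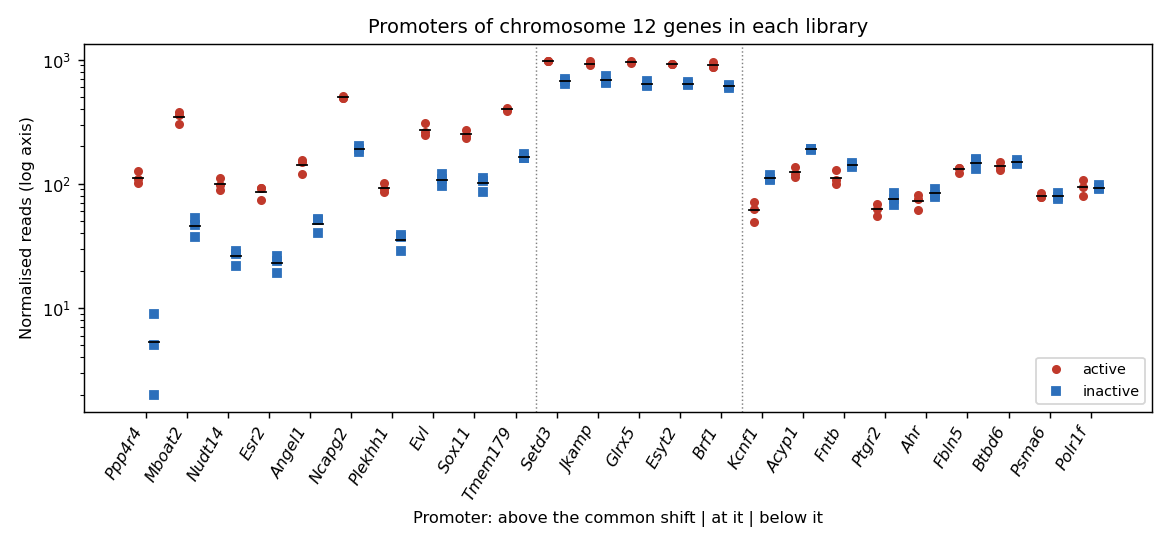
Normalised reads (y axis, log scale) in the active (red circles) and inactive (blue squares) libraries for the 10 promoters farthest above the common shift (left), the 5 strongest at it (middle) and 9 of those farthest below it (right); short black lines are group means. Active stands above inactive in the left group, as its choice required, and in the middle group. At the right the groups overlap or, for Kcnf1, Acyp1 and Fntb, active stands below.

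Regions annotated to a gene but more than 1000 bp from its start were read beside the promoter of the same gene. Cfl2, the muscle form of the actin-severing protein cofilin, had 90, 64 and 79 normalised reads in the active libraries and 24, 29 and 26 in the inactive libraries in a region 3092 bp from its start, 0.99 beyond the shift (limma, adjusted p = 1.12e-05). Its promoter had 287, 299 and 298 in the active libraries and 230, 246 and 238 in the inactive libraries, -0.22 relative to the shift. The active libraries stood above the inactive ones in both regions. The promoter lost its call below the shift when the shift was taken over promoters (-0.14) and in limma without trend and robust settings (-0.22). The call was also lost with quantile normalization (-0.12) and without inactive replicate 2 (-0.19).

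Ltbp2, a matrix protein of the latent TGF-beta binding protein family, had 173, 152 and 204 normalised reads in the active libraries and 63, 45 and 59 in the inactive libraries in a region 4874 bp from its start, 1.12 beyond the shift. Its promoter had 286, 286 and 214 in the active libraries and 179, 197 and 213 in the inactive libraries and was not called off the shift (-0.12). In the distal region the groups did not overlap, as its choice required. At the promoter 1 active library, at 214, was within 1 read of an inactive one. The other off-start regions named above the shift are given as active against inactive libraries. They lay near Slc25a21, a mitochondrial carrier (97, 97 and 116 against 27, 25 and 24), and Pacs2 (104, 97 and 104 against 54, 48 and 54). Another lay near Zfyve1 (96, 87 and 86 against 46, 51 and 35). In each the groups did not overlap, as the choice of these regions required. Without inactive replicate 3 the region near Zfyve1 lost its call (0.35 beyond the shift).

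Below the shift, Klc1, a kinesin light chain, had 97, 102 and 101 normalised reads in the active libraries and 122, 147 and 141 in the inactive libraries in a region 1041 bp from its start (-0.97 relative to the shift; limma, adjusted p = 1.68e-09). Its promoter, 85 bp from the start, had 295, 348 and 288 in the active libraries and 228, 241 and 230 in the inactive libraries and was not called off the shift (-0.12). Neighbouring regions of 1 gene thus went opposite ways between the lines, without overlap of the groups in either. Further off-start regions below the shift, near Asxl2, Xrcc3 and Prpf39, were between -0.68 and -0.62 relative to it, and none of these was called lower without centring.

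Regions with no gene gave the largest departures. A region at 81065439 to 81066477 had 97, 97 and 109 normalised reads in the active libraries and 1, 9 and 3 in the inactive libraries, 4.04 ± 0.38 (SE) beyond the shift (limma, adjusted p = 8.73e-09) and 3.27 with a pseudocount of 4. A region at 59629349 to 59630074 had 113, 127 and 135 in the active libraries and 9, 4 and 7 in the inactive libraries, 3.57 ± 0.23 (SE) beyond it (limma, adjusted p = 4.61e-16). The regions at 96934843, 78009228 and 8414478 were alike, with active means of 99, 110.7 and 102.3 and inactive means of 4, 5.67 and 6. In all 5 the groups were far apart, and all were close to empty in the inactive line. They were chosen as the farthest above the shift with groups that do not overlap, so neither trait supports anything.

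On the other side, a region at 102419787 to 102420319 had 29, 34 and 35 normalised reads in the active libraries and 65, 86 and 86 in the inactive libraries, -1.77 ± 0.17 (SE) relative to the shift (limma, adjusted p = 1.67e-11). A region at 108260841 to 108261330 had 50, 58 and 55 in the active libraries and 114, 111 and 109 in the inactive libraries, -1.55 ± 0.13 (SE) relative to it (limma, adjusted p = 1.02e-12). The named no-gene regions below the shift kept a clear signal in both lines, but naming needs a mean of at least 50 normalised reads. Regions farther below the shift miss that limit, such as that at 47164314, with means of 0.33 in the active line and 53.3 in the inactive line. Over the whole chromosome, 36 regions (2.00%, background 0.968%) had an active mean of at least 30 and an inactive mean under 5, of which 32 carried no gene and 2 were promoters. The opposite pattern was in 5 regions (0.278%, background 0.191%), and all 5 lay side by side between 46792921 and 47266616.

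Along the chromosome the shift was read in windows of 2 Mb. Of 56 windows with a region, 53 had a median log2 fold change above 0, and 47 held at least 5 regions and were tested by the sum of their values. The sum was called higher in the active line in 45 and lower in 1. The log2 ratios of the sums had quartiles of 0.44 and 0.60 around a median of 0.54. For windows the shift was taken as the median deviation over the windows of the chromosome, and 34 of the 47 lay within 0.15 of it. By limma on centred window sums, 16 of the 47 windows stood above the shift (background over 1139 windows 36.2%). Below it stood 17 of the 47 (background 36.6%), and both shares were near the background. With windows of 5 Mb, where fewer windows are tested, the number off the shift was 14. In the 12 windows of 10 Mb the median log2 fold change of promoters lay between 0.35 and 0.56. The median of all regions lay between 0.35 and 0.87 in the same windows. In the 33 windows of 2 Mb with at least 5 promoters, the promoter median lay between 0.22 and 0.66.

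The highest window and both of its neighbours stood above the shift. The window from 26 to 28 Mb, with 8 regions including the Sox11 promoter, summed to 659, 672 and 723 normalised reads in the active libraries and 331, 289 and 298 in the inactive libraries, 0.63 ± 0.07 (SE) beyond the shift (limma, adjusted p = 6.49e-12). The window from 28 to 30 Mb summed to 2212, 2206 and 2180 in the active libraries and 1195, 1172 and 1309 in the inactive libraries (0.31 beyond the shift). The window from 24 to 26 Mb, which holds the promoters of Mboat2 and Klf11, summed to 4429, 4612 and 4732 in the active libraries and 2683, 2701 and 2720 in the inactive libraries (0.23 beyond the shift). Elsewhere the window from 38 to 40 Mb was 0.27 and the window from 56 to 58 Mb 0.23 beyond the shift. In the 3 neighbouring windows from 24 to 30 Mb the groups were far apart, and none of their regions was called lower in the active line by limma.

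The lowest window was the only tested one whose sum was called lower in the active line. From 46 to 48 Mb the sums were 4, 4 and 7 normalised reads in the active libraries and 232, 257 and 235 in the inactive libraries, and limma called the window below the shift. Each of its 5 regions, none with a gene, had 0 to 2 normalised reads in every active library and 30 to 77 in every inactive one. With so few normalised reads in the active line the size of a log2 difference would be set by the pseudocount, so none is given. At least 5 regions are needed for a window to be tested, and this window held just that number.

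Its flanks differed from it and from each other. The nearest regions before it, at 45690866 and 45704186, had 137, 140 and 146 and then 55, 46 and 71 normalised reads in the active libraries, against 26, 15 and 29 and then 11, 15 and 4 in the inactive libraries. The first region after it, at 49438101 and 1983 bp from an unnamed lncRNA, had 48, 53 and 38 in the active libraries and 83, 91 and 107 in the inactive libraries. Between the last near-empty region, ending at 47266616, and 49438101 no region was analysed here. The window from 48 to 50 Mb, with 8 regions, was -0.57 relative to the shift, and its sums of 363, 342 and 352 in the active libraries and 360, 362 and 358 in the inactive libraries overlapped.

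**Figure D4:**
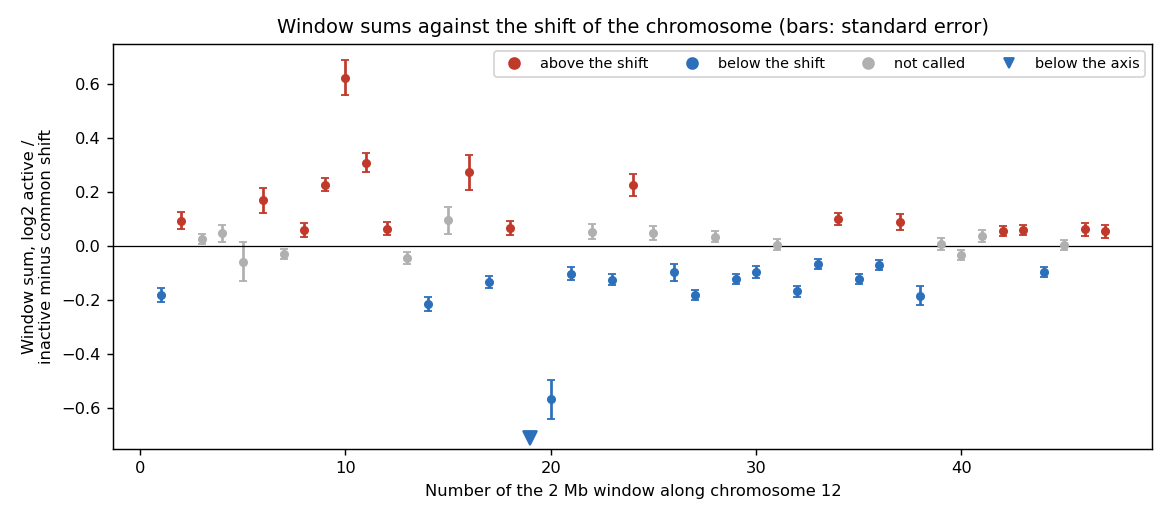
Log2 ratio of window sums, active over inactive, minus the shift taken over windows (y axis). The 47 tested windows of 2 Mb are in order along the chromosome (x axis), with standard errors. Red points are called above the shift, blue below and grey not called. The triangle marks the window from 46 to 48 Mb, which lies below the axis. Of the 47 windows 34 stay within 0.15 of 0, and the highest reaches 0.63.

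Runs of neighbouring regions on 1 side of the shift were counted as a description. There were 23 runs of at least 4 successive regions called above the shift, holding 127 regions, and 16 runs below it, holding 78. Over all chromosomes 27.6% of regions stood above and 25.3% below the shift of their own chromosome. Runs on other chromosomes were not counted, so these counts mark nothing particular to chromosome 12. The longest run above, 11 regions from 25433371 to 27518437, holds the Sox11 promoter and 10 regions with no gene. Among runs above the shift, the highest median log2 fold change (4.08) was in a run of 9 regions from 104090293 to 104389288. Parts of it were annotated to Serpina3b, of a serine protease inhibitor family, and to Serpina3h, given here as a lncRNA. The promoter region of the run lay 136 bp from the start of Serpina3h. It had 44, 41 and 46 normalised reads in the active libraries and 2, 2 and 0 in the inactive libraries. The strongest region of the run, at 104381745, lay 3542 bp from the start of a snoRNA gene. It had 253, 254 and 239 in the active libraries and 65, 65 and 56 in the inactive libraries. In all 9 regions every active library stood above every inactive one. The Serpina3 genes are similar copies side by side, and how reads that align to several copies were placed is not given in the sources used here, so the values of single regions in this run are uncertain.

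A run of 10 regions from 77675065 to 78166320, with no promoter, had a median log2 fold change of 2.98. Its strongest region, at 77694198, had 265, 295 and 272 normalised reads in the active libraries and 16, 21 and 18 in the inactive libraries. A run of 6 regions from 57592157 to 58473474 began beside Foxa1, a pioneer factor of endoderm, where a region 1277 bp from the start had 47, 41 and 47 in the active libraries and 14, 12 and 13 in the inactive libraries. A run of 4 regions ended at the promoter of Etv1, an ETS family transcription factor, which had 42, 34 and 34 in the active libraries and 2, 0 and 3 in the inactive libraries. The longest run below the shift, 9 regions from 69497764 to 69549680, had a median log2 fold change of 0.23, between -1.21 and 0.28 for its regions.

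**Figure D5:**
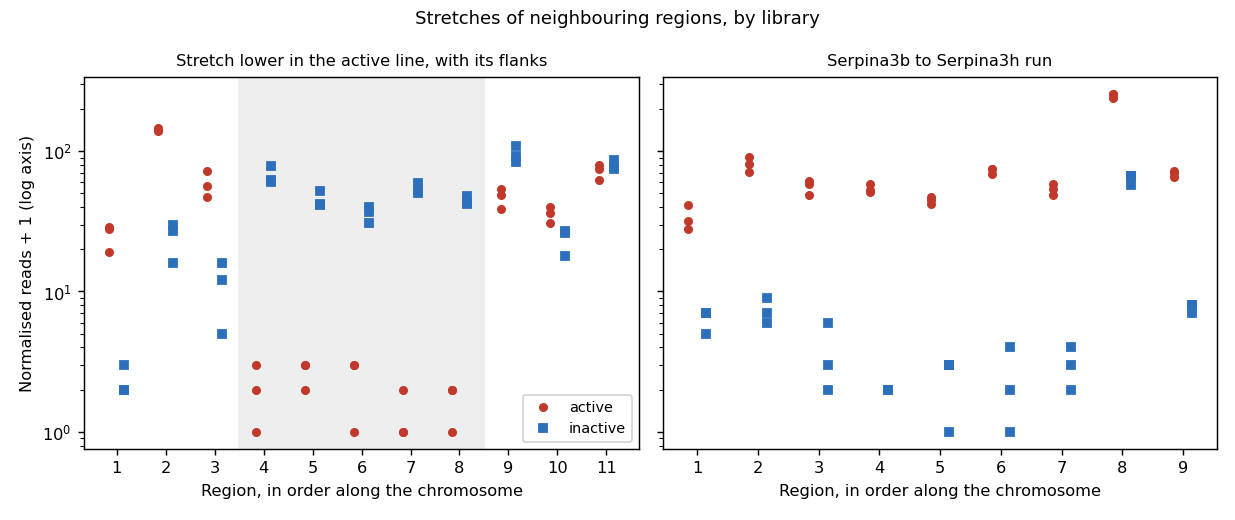
Normalised reads plus 1 (y axis, log scale) in the active (red circles) and inactive (blue squares) libraries, in order along the chromosome (x axis). The left panel shows the 5 regions of the lowest window (shaded) with the regions beside them. The right panel shows the 9 regions of the run that holds Serpina3b and Serpina3h. Inside the shading the active libraries are at 0 to 2 normalised reads, and in the right panel they stand above the inactive libraries in every region.

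Genes of chromosome 12 were then read in lists by role, each gene by its most abundant promoter, beside a median log2 fold change of 0.43 over all chromosome 12 promoters and -0.10 over all 11143 promoters tested. Of all chromosome 12 promoters 81.2% were higher, 12.3% above and 27.2% below the shift, and the background in brackets is the share of all promoters tested. Frmd6 stands in 2 lists, as does Hif1a. Of 26 genes of actin and the cytoskeleton, 19 had a promoter region, 18 of these were higher (94.7%, background 22.4%), 0 lower (background 36.6%), and the median was 0.41. Rock2, a kinase that drives actomyosin contraction, had 799, 804 and 803 normalised reads in the active libraries and 637, 590 and 623 in the inactive libraries. Rhob, a small GTPase that acts on the cytoskeleton, had 772, 746 and 735 in the active libraries and 583, 612 and 630 in the inactive libraries. Actn1, the actin crosslinker alpha-actinin, had 725, 786 and 691 in the active libraries and 575, 584 and 557 in the inactive libraries. Each of these had all active libraries above all inactive ones, yet each was called below the common shift, as were Arf6, Syne3 and Cfl2, while Evl alone stood above it (5.26%, background 14.8%). The 6 below it are 31.6% (background 26.5%). With the shift taken over promoters, Rhob and Arf6 alone remained below. Actn1 also lost its call with the shift taken over windows of 10 Mb and without active replicate 3 (-0.12). Rock2 lost its call without inactive replicate 1 (-0.12) and without inactive replicate 3 (-0.13).

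Of 14 genes of AP-1 and stress signalling, 11 had a promoter, 8 of these were higher (72.7%, background 22.4%), 0 lower (background 36.6%), and the median was 0.39. Fos, a subunit of the AP-1 factor, had 559, 541 and 542 normalised reads in the active libraries and 444, 422 and 501 in the inactive libraries (-0.26 relative to the shift). Nfkbia, the inhibitor of NF-kappaB, had 668, 670 and 716 in the active libraries and 436, 457 and 489 in the inactive libraries and was not called off the shift (0.05). Fos, Zfp36l1, Map3k9 and Mark3 stood below the shift (36.4%, background 26.5%) and 0 genes above it (background 14.8%). Mark3 was no longer called below the shift with a shift over promoters (-0.12) or over windows of 10 Mb. The call was also lost without any 1 of 4 libraries, active replicates 1 (-0.18) and 3 (-0.19) and inactive replicates 1 (-0.16) and 2 (-0.19).

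Of 29 transcription factors, 18 had a promoter, 15 of these were higher (83.3%, background 22.4%), 0 lower (background 36.6%), and the median was 0.46. Sox11, Etv1 and Klf11 stood above the shift (16.7%, background 14.8%) and 7 genes below it (38.9%, background 26.5%). Ahr, Twist1, Zbtb1, Id2, Max and Hbp1 were among those below it. Klf11, a Krüppel-like factor, had 857, 915 and 895 normalised reads in the active libraries and 563, 548 and 538 in the inactive libraries, 0.17 beyond the shift, but -0.19 relative to a shift taken over its own window of 10 Mb. Twist1, a factor of mesenchymal cells, had 376, 406 and 369 in the active libraries and 329, 332 and 347 in the inactive libraries (-0.34 relative to the shift). Every active library of Klf11 and Twist1 stood above every inactive one. With the shift taken over promoters 7 genes of the list stood above it and 5 below. The call for Max was lost with the shift taken over windows of 10 Mb and without inactive replicate 1 (-0.17).

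Of 27 genes of translation and RNA processing, 20 had a promoter, 18 of these were higher (90%, background 22.4%), 0 lower (background 36.6%), and the median was 0.38. Eif5, a factor of start codon selection, had 817, 924 and 826 normalised reads in the active libraries and 631, 620 and 580 in the inactive libraries and was not called off the shift (-0.04). Gtf2a1, a subunit of the general transcription factor TFIIA, had 573, 597 and 605 in the active libraries and 494, 502 and 484 in the inactive libraries (-0.26 relative to the shift). In this list 8 genes stood below the shift (40%, background 26.5%) and 0 above it (background 14.8%), whereas with the shift taken over promoters 3 stood below and 3 above. With the shift taken over windows of 10 Mb, Rps29, Nemf and Srsf5 were no longer called below it. Leaving out a library ended the call for Rps29 (without active replicate 3 at -0.12, inactive replicate 2 at -0.13 or 3 at -0.16), for Nemf (without active replicate 1 at -0.37, inactive replicate 2 at -0.34 or 3 at -0.45) and for Srsf5 (without active replicate 1 or 3, both at -0.15, inactive replicate 2 at -0.15 or 3 at -0.18).

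Of 16 genes of protein turnover and chaperones, 15 had a promoter, 14 of these were higher (93.3%, background 22.4%), 0 lower (background 36.6%), and the median was 0.42. Hspa2, an HSP70 chaperone, had 531, 555 and 541 normalised reads in the active libraries and 422, 447 and 487 in the inactive libraries (-0.26 relative to the shift). Psma6, Hspa2 and Fbxo33 were among the 4 genes below the shift (26.7%, background 26.5%) and 0 genes stood above it (background 14.8%), and with the shift taken over promoters Fbxo33 lost its call (-0.11). Of 16 genes of the extracellular matrix and adhesion, 12 had a promoter, 10 of these were higher (83.3%, background 22.4%), 0 lower (background 36.6%), and the median was 0.48. Matn3, a cartilage matrix protein, and Smoc1, a matricellular protein, stood above the shift (16.7%, background 14.8%) and Fbln5 below it (8.33%, background 26.5%). Smoc1 had 41, 44 and 41 in the active libraries and 7, 9 and 9 in the inactive libraries, and the groups were far apart. The call for Matn3 was lost without active replicate 3 (0.35) and without inactive replicate 1 (0.39) or 3 (0.35), and with the shift taken over windows of 10 Mb 2 genes of the list stood above it and 5 below.

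Of 21 genes of metabolism, 11 had a promoter, 10 of these were higher (90.9%, background 22.4%), 0 lower (background 36.6%), and the median was 0.56. Nampt, the rate-limiting enzyme of NAD salvage, had 823, 921 and 834 normalised reads in the active libraries and 596, 610 and 645 in the inactive libraries and was not called off the shift (-0.05). Odc1, the first enzyme of polyamine synthesis, had 630, 728 and 699 in the active libraries and 443, 479 and 440 in the inactive libraries and was not called either (0.07). Mboat2 stood above the shift (9.09%, background 14.8%), and Acot2, Dlst and Mthfd1 below it (27.3%, background 26.5%), whereas with the shift taken over promoters Odc1, Mboat2 and Gstz1 stood above and Acot2 below. The call for Dlst was lost with the shift taken over windows of 10 Mb. It was also lost without active replicate 1 (-0.21) or 2 (-0.22) and without inactive replicate 2 (-0.20) or 3 (-0.26). For the 8 listed genes of the imprinted Dlk1-Dio3 domain, no region was analysed here.

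In the whole series, the 6 libraries summed to between 6433944 and 6548535 normalised reads over 52957 listed regions. Of 10 fibroblast markers 9 had a promoter region, with summed levels between 2830 and 3006 in active libraries and between 3434 and 3613 in inactive ones. Vim was the highest (668.7 and 986 on average). Col1a2 (234 and 158) and Twist1 (383.7 and 336) were higher in the active line on average, and the others were lower. None of the 3 blood markers had a promoter region in the table analysed here. Of 4 epithelial markers Krt8 had one, between 134 and 171 in active libraries and between 78 and 89 in inactive ones. Of 3 endothelial markers Kdr had one, between 74 and 82 in active libraries and between 5 and 9 in inactive ones, and of 3 neuronal markers Tubb3 had one, between 118 and 149 in active libraries and between 172 and 196 in inactive ones. These levels differed between the lines, and their part in the chromosome 12 results was not tested.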

How the data were processed

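The 6 libraries were made by lysing cells with digitonin, tagging open DNA with Tn5 and sequencing in pairs on a NextSeq, per the labels' protocols. The submitters' processing notes name the build mm39 and, with no order or role, DESeq2 1.36.0, featureCounts, Picard 3.1.1, STAR 2.7.11a and Trimmomatic 0.39, while the peak caller is not given in the sources used here. The deposited table holds 1 score per region and library, whole numbers that behave as reads divided by a size factor by the authors and rounded, called normalised reads here. Because these are not raw reads, no count model was used. The reads before scaling, estimated from the spacing of low values, were 3710000 to 8960000 per library, and chromosome 12 regions at or under 3 normalised reads numbered 6 to 7 per active library and 40 to 49 per inactive library, so weak values are the least precise.

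Regions with a mean of at least 10 were tested with limma 3.58.1 (R 4.3.3; trend and robust settings) on log2(value + 1), which understates changes of weak regions, with Benjamini-Hochberg adjustment over the whole table at 0.05. For the common shift, each library was lowered by the median deviation of its chromosome. Window sums needed at least 5 regions in 2 Mb, were centred on the median deviation over the windows of their chromosome and were fitted with trend. Window tables were adjusted over all 1139 windows. Classes were compared by an exact permutation test over libraries. Scripts were tested on simulated data. Python 3.11.15, numpy 2.4.6, pandas 2.3.3 and matplotlib 3.10.9 made the summaries and plots.

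Named promoters have a symbol, a mean of at least 50, a call on centred values and centred libraries that do not overlap: the 10 farthest on each side, with 5 on each side for off-start and no-gene regions, the 5 most abundant promoters within 0.1 of the shift, and up to 4 of the most abundant promoters of each list. Further list members off the shift, runs and regions beside the lowest window were named after their values were seen. A few of the regions that this rule names are not reported here. The members and lists were chosen with earlier results of these data known.

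Library pairs within a group correlated at 0.969 to 0.984, so none was a copy of another. Promoter sequences were taken by symbol from RefSeq on GRCm38.p6, another build than that of the regions, so region positions are on mm39 and sequence positions on GRCm38.p6. An entry was kept where its distance to the start site in the table was within 1000 bp of that of its neighbours. Alternatives were another pseudocount, other filters, quantile normalization and limma without trend and robust settings. Further ones were other shifts, windows and bins, each library left out, and the replicate number as a block.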

Additional observations from a re-analysis of the deposited data

How the results depend on the processing

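The number of chromosome 12 regions called lower was 121, and 59 with a mean of at least 30, where fewer regions are tested. The median log2 fold change of 0.50 was 0.48 with a pseudocount of 4, 0.48 with a mean of at least 30 and 0.46 with quantile normalization. The promoter minus no-gene difference of -0.20 was -0.14 with a pseudocount of 4, -0.058 with quantile normalization and -0.036 within bins of abundance. The limma settings do not enter it. Windows off the shift numbered 33 at 2 Mb and 14 at 5 Mb, where fewer windows are tested. Klf11 turned to -0.19 with a shift over windows of 10 Mb, and the cause was not tested. With the shift over promoters 567 regions stood above it and 352 below.

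Leaving out each library gave 1135 to 1197 regions higher, 95 to 115 lower, 445 to 496 above and 390 to 449 below the shift. Medians were 0.49 to 0.51, windows off the shift numbered 29 to 33 and the promoter minus no-gene difference lay between -0.23 and -0.18. Of the 40 named regions 39 to 40 were still called, but they were chosen for their call in these same libraries, so this supports nothing. Same-numbered libraries of the 2 groups did not deviate together (correlations of -0.0162 to 0.00137), so the numbers pair nothing. With the replicate block 1211 regions were higher, 119 lower, 497 above and 467 below the shift, with 31 windows and 40 named regions. Of 2325 other values for single regions, 2205 kept direction and call, 117 lost the call, 2 gained it and 1 reversed. Few libraries and low values limit weak regions most.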

Other observations

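Promoters of chromosome 12 were also read by the type of gene. The 308 protein-coding promoters had a median log2 fold change of 0.43 with quartiles of 0.32 and 0.55, and 29 stood above the common shift (9.42%, background for all promoters tested 14.8%) and 78 below it (25.3%, background 26.5%). The 50 promoters of lncRNA genes had a median of 0.38 with wider quartiles of 0.15 and 0.67, and 10 stood above the shift (20%, background 14.8%) and 22 below it (44%, background 26.5%). The 8 promoters of processed pseudogenes had a median of 0.93, and 7 were higher in the active line (87.5%, against 81.2% of all chromosome 12 promoters and a background of 22.4%) and 0 lower (background 36.6%). The difference between these types was not tested, and similar copies of a sequence can share reads.

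Among listed genes, a region 2429 bp from the start of Degs2, an enzyme of sphingolipid synthesis, had 62, 71 and 66 normalised reads in the active libraries and 9, 5 and 9 in the inactive libraries. Every active library stood above every inactive one, and the region was 2.47 beyond the common shift (limma, adjusted p = 9.3e-11).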
